A study of Mus musculus with 4 samples.

Results

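The genes described here encode the voltage-gated sodium, potassium and calcium channels of the mouse. They were taken by gene symbol from the array annotation: sodium channel α and β subunits (Scn), pore subunits and electrically silent partners of voltage-gated potassium channels (Kcna, b, c, d, f, g, h, q, s and v), and calcium channel α1, α2δ and β subunits (Cacna1a to Cacna1i, Cacna2d and Cacnb). The rule found 70 genes with 164 probes, of 26282 named genes on the array. RNA came from spinal cord and from brainstem/cerebellum of transgenic mice, which the submitters call MSA Tg, and from the same tissues of wild-type mice, all aged 24 weeks. The labels give every group a strain background of C57BL/6, 129 and C3H. They name neither the transgene nor its promoter, the sample titles begin with an abbreviation (PLP) that the labels do not spell out, and it is not stated if a sample pools several animals. MSA usually abbreviates multiple system atrophy, in which a misfolded protein builds up in oligodendrocytes and neurons degenerate. There are 4 groups with 1 single-colour array each. Without replicates no difference can be tested, and every count below describes these arrays.

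Voltage-gated channels open when the membrane potential changes. Sodium channels, clustered at the axon initial segment and at nodes of Ranvier, carry the upstroke of the action potential, potassium channels end it and set firing frequency, and calcium channels turn it into transmitter release and calcium signals. Each pore-forming α subunit works with auxiliary subunits: β subunits in sodium channels, β and α2δ subunits in calcium channels, and in the Kv2 group the silent subunits, which form no channel alone but change the gating of Kv2 channels. In spinal cord and brainstem these genes are expressed mainly in neurons, and several also in glia and muscle.

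Levels are log2 of the background-subtracted spot signal minus the 75th percentile of the array, so 0 is a signal at that percentile. The brightest probe stood for a gene, and levels of different genes are not comparable on an array. Of the 70 genes, 57 were well above background on all 4 arrays and 7 on some of them. The other 6, Kcna10, Kcng3, Kcnv2, Scn7a, Scn9a and Scn10a, were on no array well above background. Spot to spot, the SD of a difference within an array was 0.09 for the brightest probes, 0.10 and 0.13 for intermediate ones, 0.24 for dim ones and 0.63 for the dimmest, which covers technical error within an array only. Between 59.2% and 64.0% of all spots were well above background, none was saturated, and no spot of these genes was outlier-flagged. The wild-type spinal cord array lay on a slide of its own and had the highest 75th percentile, a signal of 678, against 410 to 458 on the 3 arrays of the other slide. In spinal cord, genotype and slide therefore cannot be told apart, while both brainstem/cerebellum arrays and the transgenic spinal cord array shared a slide. All source labels name the brain, and the tissue labels separate the samples. Gabra6, a receptor subunit of cerebellar granule cells, was well above background on neither spinal cord array and on both brainstem/cerebellum arrays.

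In spinal cord the channel genes lay mostly lower on the transgenic array. Of 58 genes above background on both arrays, 48 had a difference (transgenic minus wild type) below 0 and 10 above 0, against 53.6% below 0 over all 16857 genes. Their median difference was -0.45, against -0.05 over all genes. At least 2-fold lower were 11 of the 58, where 6.38% of all genes were, and at least 2-fold higher were 0, where 8.51% of all genes were. With bounds included, Scn4a was a further member at least 2-fold lower. Among genes above background on 1 spinal cord array only, that was 1 of 6 members, beside 182 of 1525 over all genes. In tissue RNA, fewer cells of a type and less RNA per cell cannot be told apart.

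In brainstem/cerebellum the same genes differed little between genotypes. Of 61 genes above background on both arrays, 41 lay below 0 and 20 above, against 61.8% below 0 over all 16577 genes, and the median was -0.15, against -0.07 over all genes. At least 2-fold lower was 1 gene, Kcna3, where 0.296% of all genes were, and at least 2-fold higher were 0, where 2.67% were. Of 57 genes measured on all 4 arrays, 34 had both genotype differences below 0, 5 both above and 18 opposite signs, and across these genes the genotype differences in spinal cord and brainstem/cerebellum had a Pearson correlation of 0.21, given as a description. The spinal cord difference was the lower of the pair in 46 of the 57. Over the 57, the spinal cord difference minus the brainstem/cerebellum one had a median of -0.33. Matching counts over all genes were not made, so these describe the channel genes only.

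**Figure D1:**
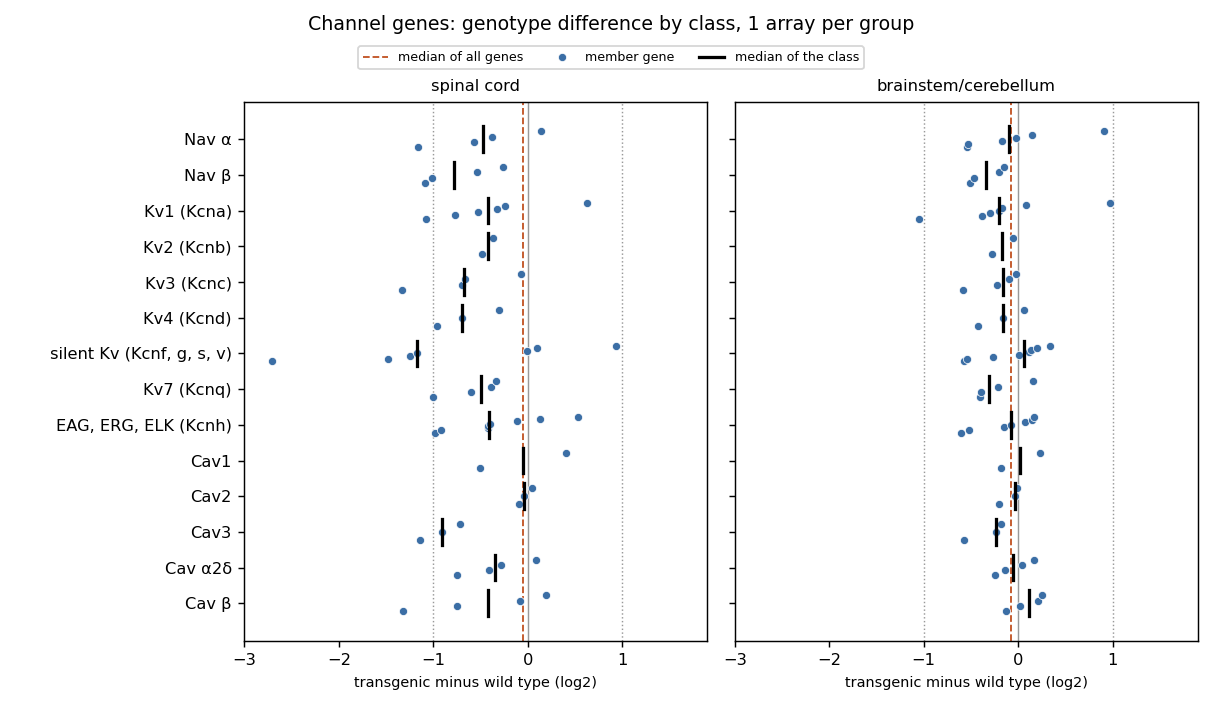
Transgenic minus wild-type log2 difference of each channel gene above background on both arrays, by channel class (rows), in spinal cord (left panel) and brainstem/cerebellum (right panel), 1 array per group. Points are genes, black bars class medians, the dashed line is the median of all genes and dotted lines mark 2-fold. In spinal cord most points lie left of 0, with Kcng2 farthest at -2.71, and in brainstem/cerebellum only Kcna3 passes the 2-fold line, at -1.05.

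Of the sodium channel α subunits, the pores, Scn1a encodes the main channel of many inhibitory interneurons and Scn8a that of mature nodes of Ranvier. Scn8a had a level of 1.01 in transgenic spinal cord and 2.18 in wild-type spinal cord, and of 2.0 in transgenic and 2.18 in wild-type brainstem/cerebellum. The transgenic spinal cord array was thus the low one of 4, 2.24-fold below wild type, a difference of -1.17, while brainstem/cerebellum differed by -0.17. Scn1a had 2.78 in transgenic spinal cord against 3.34 in wild-type spinal cord, and 3.41 in transgenic against 3.27 in wild-type brainstem/cerebellum, so its sign differed between tissues. Scn3a, an embryonic-type channel, differed by -0.38 in spinal cord and by -0.03 in brainstem/cerebellum.

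Among the other α subunits, the muscle channel gene Scn4a was not well above background in transgenic spinal cord, where its probe read -5.29, and was above it in wild-type spinal cord at -4.18, which bounds the difference at 2.15-fold or more lower. In brainstem/cerebellum Scn4a read -4.87 in transgenic and -4.33 in wild-type tissue. The technical SD at the levels of Scn4a was 0.63 in both tissues. Markers of skeletal muscle mostly moved the same way: 6 of 9 were above background on the transgenic spinal cord array against 9 of 9 on the wild-type one. Over all spots, 60.9% of the transgenic and 64.0% of the wild-type spinal cord array were well above background. The median spinal cord difference of the markers measured on both was -0.75, and Ryr1 went the other way, at 0.17. The summed linear level of the markers was 1.25 times the 75th percentile in transgenic spinal cord and 2.32 in wild-type spinal cord. The part of muscle RNA in the Scn4a value was not tested. Scn11a, a channel of nociceptive sensory neurons, was brighter in brainstem/cerebellum: it read -2.37 in transgenic and -3.28 in wild-type brainstem/cerebellum, a difference of 0.90, and was not well above background in transgenic spinal cord, where its probe read -6.77, against -5.65 in wild-type spinal cord. Scn7a, Scn9a and Scn10a, also known from peripheral sensory neurons, were not well above background on any array. The gene of the Nav1.2 channel appears in the array annotation under its older symbol Scn2a1, which the rule does not take. Its brightest probe differed by -0.26 in spinal cord and -0.16 in brainstem/cerebellum.

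All 4 sodium channel β subunits, the small adhesion proteins that tune gating and anchor the channel, lay below 0 in both tissues, with medians of -0.78 in spinal cord and -0.34 in brainstem/cerebellum. Of all genes, 53.6% lay below 0 in spinal cord and 61.8% in brainstem/cerebellum. Scn4b, linked to resurgent current in fast-firing neurons, had a level of 3.40 in transgenic spinal cord and 4.48 in wild-type spinal cord, a difference of -1.08, and of 3.41 in transgenic against 3.91 in wild-type brainstem/cerebellum. Scn2b had 2.14 in transgenic and 3.16 in wild-type spinal cord, a difference of -1.02, and 4.19 in transgenic and 4.34 in wild-type brainstem/cerebellum. Both genes were thus just past 2-fold lower in spinal cord. Scn3b differed by -0.26 in spinal cord.

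In the Kv1 family, the delayed rectifiers that line the juxtaparanodes of myelinated axons, Kcna1 and Kcna6 shifted little. Kcna1 read 4.64 in transgenic and 4.87 in wild-type spinal cord, and 4.40 in transgenic and 4.61 in wild-type brainstem/cerebellum. Kcna6 read 3.86 in transgenic and 4.19 in wild-type spinal cord, and 3.89 in transgenic and 4.06 in wild-type brainstem/cerebellum. In contrast Kcna2, the usual partner of Kcna1 in juxtaparanodal channels, read 0.57 in transgenic and 1.65 in wild-type spinal cord, and 1.32 in transgenic and 1.63 in wild-type brainstem/cerebellum. The transgenic spinal cord array was the low one, 2.11-fold below wild type, a difference of -1.08, where Kcna1 differed by -0.24. All 3 genes were lower on the transgenic array in both tissues.

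Kcna5, a Kv1 channel described in glia and macrophages as well as in muscle, went the other way. It read -2.37 in transgenic and -3.0 in wild-type spinal cord, and -3.56 in transgenic and -4.53 in wild-type brainstem/cerebellum. It was higher in the transgenic tissue by 0.62 in spinal cord and by 0.97 in brainstem/cerebellum, the highest value there of any member above background on both arrays. The technical SD at the levels of Kcna5 was 0.24 in spinal cord and 0.63 in brainstem/cerebellum. Kcna3, a channel of T cells and microglia, read -4.76 in transgenic and -3.71 in wild-type brainstem/cerebellum, a difference of -1.05 in a range where the technical SD was 0.63. In spinal cord Kcna3 was above background on the wild-type array only, at -4.96. Of 6 T lymphocyte genes, 3 were measured on both brainstem/cerebellum arrays, with a median of -0.01. Kcna4 and Kcna7 differed by -0.52 and -0.77 in spinal cord, and Kcna10 was not well above background anywhere.

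Kv2 and Kv3 channels are delayed rectifiers of the cell body and of fast-firing neurons. The Kv2 gene Kcnb2 differed by -0.37 in spinal cord and by -0.06 in brainstem/cerebellum. Among the Kv3 genes, Kcnc1 stood out: 0.90 in transgenic and 2.23 in wild-type spinal cord, against 2.20 in transgenic and 2.22 in wild-type brainstem/cerebellum. At this brightest probe the other 3 arrays lay close together and transgenic spinal cord was 2.51-fold below wild type, a difference of -1.33. Its other 2 probes above background, assigned to another transcript of the gene, gave -1.10 and -0.91. At those probes wild-type spinal cord also lay below wild-type brainstem/cerebellum, with tissue differences of -0.95 and -0.91. Kcnc2 read 0.19 in transgenic and 0.85 in wild-type spinal cord, and 0.28 in transgenic and 0.86 in wild-type brainstem/cerebellum, lower on the transgenic array in both tissues. Kcnc4 read 0.70 in transgenic and 1.39 in wild-type spinal cord, and 1.66 in transgenic and 1.88 in wild-type brainstem/cerebellum.

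The probes of Kcnc1 are shown because probes of 2 of its transcripts were lower on the same array. The probe at base 3973 is assigned to one transcript and those at bases 1831 and 7686 to another, so their positions are not on 1 scale. Each line gives the first 30 bases of a 60-base probe, 5′ to 3′, from the array annotation with its mm9 coordinates, all on the plus strand of chromosome 7. The Kcnc1 probes lie at chr7:53693712-53693771, chr7:53682767-53682826 and chr7:53688622-53688681, with spinal cord differences of -1.33, -1.10 and -0.91.
Kcnc1 probe at transcript base 3973: gagattcgagcatgaaataaattttgtaac
Kcnc1 probe at transcript base 1831: tgtctggagactcacgagcgcttcaacccc
Kcnc1 probe at transcript base 7686: gccttgccgtcttgtacgacagactttttt
Which exons or untranslated regions the probes fall in is not given here, since no annotation of that build was used.

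Promoter sequences were examined for the genes lower in spinal cord. RefSeq promoters of build GRCm38.p6, 250 bases before to 50 bases after the start, were held for 47 of the 70 genes and for 8 of the 11 that were at least 2-fold lower. The promoters of Kcna2 (chr3:107101317-107101616, plus strand) and Kcnc1 (chr7:46396218-46396517, plus strand) are printed as examples, an axonal and a fast-firing potassium channel gene for which the transgenic spinal cord array was the low one of 4. Capitals mark the GC box, GGGCGG on either strand, so CCGCCC as well. Both examples carry it, whereas the promoters of Kcng4, Scn2b, Scn4b and Scn8a, also lower in spinal cord, do not.
Kcna2 promoter: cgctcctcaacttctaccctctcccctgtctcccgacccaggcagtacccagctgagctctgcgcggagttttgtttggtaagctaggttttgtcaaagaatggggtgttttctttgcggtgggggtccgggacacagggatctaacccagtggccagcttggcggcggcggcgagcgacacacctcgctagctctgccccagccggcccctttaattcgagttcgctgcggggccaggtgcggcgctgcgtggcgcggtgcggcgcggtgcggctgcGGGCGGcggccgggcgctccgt
Kcnc1 promoter: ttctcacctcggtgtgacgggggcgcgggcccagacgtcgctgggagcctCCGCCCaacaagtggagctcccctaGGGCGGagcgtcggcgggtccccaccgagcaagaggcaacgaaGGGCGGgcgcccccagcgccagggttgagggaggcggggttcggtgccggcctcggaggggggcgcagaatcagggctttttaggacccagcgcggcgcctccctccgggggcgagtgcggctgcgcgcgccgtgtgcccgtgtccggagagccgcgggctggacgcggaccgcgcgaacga
Over all promoters listed for a gene, a GC box was present in 29 of the 47 genes (61.7%), against 38.2% of 27025 genes with a promoter of the same length, and in 4 of the 8 lower genes. The left arm of the RE1 element bound by the neuronal repressor REST, TTCAGCACC, was in 1 (2.13%) against 0.433% of all. The cAMP element TGACGTCA was in 0 against 2.03%, and the E-box CACGTG in 1 (2.13%) against 8.09%. Both strands were searched, no motif contains another, and a match describes letters only. The motifs were chosen after the expression values were known.

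Kv4 channels carry the dendritic A-type current. Kcnd2 read 1.18 in transgenic and 1.88 in wild-type spinal cord, and 3.55 in transgenic and 3.49 in wild-type brainstem/cerebellum. Kcnd3 read 1.26 in transgenic and 1.57 in wild-type spinal cord, and 2.74 in transgenic and 2.90 in wild-type brainstem/cerebellum. For both, tissue separated the arrays more than genotype did. Kcnd1 read -1.40 in transgenic and -0.44 in wild-type spinal cord, and -1.17 in transgenic and -0.74 in wild-type brainstem/cerebellum. Its spinal cord difference was -0.96, with other probes at -0.71 and 0.26, the last one dim.

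The silent Kv subunits, which modify Kv2 channels, held the lowest genotype difference of all members. In spinal cord 7 were measured in both genotypes, 4 of them at least 2-fold lower, and the median was -1.17, against 0.06 over 8 in brainstem/cerebellum. Over all genes 6.38% were at least 2-fold lower in spinal cord. Kcng2 read -0.76 in transgenic and 1.95 in wild-type spinal cord, and 0.62 in transgenic and 0.48 in wild-type brainstem/cerebellum. The wild-type spinal cord array was the high one and the transgenic one the low one, 6.52-fold apart, a difference of -2.71. Another, dim probe of Kcng2 was not above background in transgenic spinal cord, at -5.45, and was above it in wild-type spinal cord, at -4.65. Kcng4 read -2.85 in transgenic and -1.37 in wild-type spinal cord, and -0.82 in transgenic and -0.83 in wild-type brainstem/cerebellum. Its spinal cord difference was -1.48, with nearly equal values in the other tissue.

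Kcns3 read -0.01 in transgenic and 1.16 in wild-type spinal cord, and -0.65 in transgenic and -0.08 in wild-type brainstem/cerebellum. It was lower on the transgenic array in both tissues, with differences of -1.17 in spinal cord and -0.57 in brainstem/cerebellum. Kcng1 read -4.53 in transgenic and -3.29 in wild-type spinal cord, and -3.14 in transgenic and -3.48 in wild-type brainstem/cerebellum, so its difference of -1.24 rests on a dim spot. Its technical SD was 0.63, and the difference lies within 3 of these. Kcnf1 had the highest spinal cord difference of the members above background on both arrays, 0.93, at -3.40 in transgenic and -4.33 in wild-type spinal cord. The technical SD at these levels was 0.63. In brainstem/cerebellum Kcnf1 read -3.74 in transgenic and -3.85 in wild-type tissue. Kcns1 differed by 0.10 in spinal cord, and Kcns2 read -4.01 on both spinal cord arrays. Kcnv1 read -5.13 in transgenic and -4.58 in wild-type brainstem/cerebellum, and was above background on the wild-type spinal cord array only.

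The Kv7 genes encode the M-current, which restrains repetitive firing. All 4 measured on both spinal cord arrays lay below 0, as did 53.6% of all genes, and their median was -0.50. Kcnq5 lay just short of 2-fold in spinal cord at -0.9995, with -1.16 in transgenic and -0.16 in wild-type tissue, and differed by 0.16 in brainstem/cerebellum. Kcnq1, a cardiac and epithelial channel, was above background at its brightest probe in wild-type spinal cord only, while another dim probe was also above background in transgenic brainstem/cerebellum, at -4.93.

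Of the 8 EAG, ERG and ELK genes (Kcnh), 6 lay below 0 in spinal cord, where 53.6% of all genes did. Their median was -0.41, and none reached 2-fold. Kcnh4 and Kcnh2 differed most there, by -0.98 and -0.92, and all their probes concurred, from -1.18 to -0.98 for Kcnh4 and from -0.92 to -0.90 for Kcnh2. Kcnh2 read -0.11 in transgenic and 0.81 in wild-type spinal cord, and 0.22 in transgenic and 0.73 in wild-type brainstem/cerebellum. It was lower on the transgenic array in both tissues. Kcnh1 read 0.51 in transgenic and 0.91 in wild-type spinal cord, and 1.82 in transgenic and 1.75 in wild-type brainstem/cerebellum. Kcnh5 read -2.17 in transgenic and -1.75 in wild-type spinal cord, and -3.12 in transgenic and -2.51 in wild-type brainstem/cerebellum, where its difference of -0.61 was the lowest after that of Kcna3 among genes above background on both arrays. Kcnh6 read -3.13 in transgenic and -3.25 in wild-type spinal cord, and -3.18 in transgenic and -3.02 in wild-type brainstem/cerebellum. Kcnh7 was dim, at -4.80 in transgenic and -5.34 in wild-type spinal cord, and was not above background in transgenic brainstem/cerebellum but was in wild-type tissue.

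**Figure D2:**
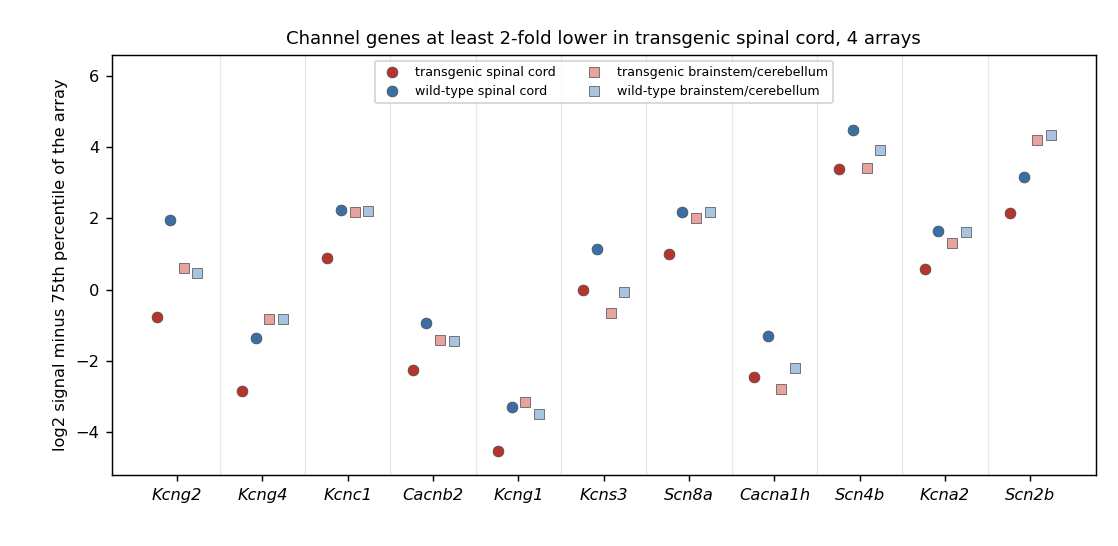
Level on each of the 4 arrays (log2 signal minus the 75th percentile of the array) of the 11 channel genes at least 2-fold lower in transgenic than in wild-type spinal cord; circles are spinal cord, squares brainstem/cerebellum, red and pink transgenic, dark and light blue wild type. The red circle is below the dark blue one in every column by construction of the list. At the brightest probes of Kcnc1 and Scn8a, plotted here, the other 3 arrays lie close together, between 2.20 and 2.23 and between 2.0 and 2.18.

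Of the calcium channel α1 subunits, the Cav2 genes, whose channels trigger transmitter release, differed little by genotype at their brightest probes, with medians of -0.04 in spinal cord and -0.03 in brainstem/cerebellum. Cacna1a, the P/Q-type channel of presynaptic terminals and Purkinje cells, read 1.85 in transgenic and 1.89 in wild-type spinal cord, and 3.18 in transgenic and 3.21 in wild-type brainstem/cerebellum. Cacna1b, the N-type channel, read 0.17 in transgenic and 0.25 in wild-type spinal cord, and 0.68 in transgenic and 0.69 in wild-type brainstem/cerebellum. Genotypes thus lay close together at the brightest probes of both genes, while other probes did not always do so. Another Cacna1a probe read 0.72 in transgenic and 1.22 in wild-type spinal cord, a difference of -0.50, and differed by 0.26 in brainstem/cerebellum. Dimmer probes of Cacna1b and Cacna1e reached -0.92 and -0.87 in spinal cord.

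The Cav3 genes, low-threshold T-type channels that drive burst firing, were all lower in transgenic spinal cord, as were 53.6% of all genes. Their median was -0.90 there and -0.23 in brainstem/cerebellum. Cacna1h read -2.44 in transgenic and -1.30 in wild-type spinal cord, and -2.79 in transgenic and -2.21 in wild-type brainstem/cerebellum. It was at least 2-fold lower in spinal cord, at -1.14. Cacna1i read 0.22 in transgenic and 1.12 in wild-type spinal cord, and 1.44 in transgenic and 1.63 in wild-type brainstem/cerebellum. Cacna1g read -0.02 in transgenic and 0.70 in wild-type spinal cord, and 2.15 in transgenic and 2.38 in wild-type brainstem/cerebellum. For these genes every probe above background on both spinal cord arrays was lower on the transgenic one.

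Of the L-type Cav1 genes, Cacna1c read 0.62 in transgenic and 1.13 in wild-type spinal cord, and 1.22 in transgenic and 1.41 in wild-type brainstem/cerebellum. Cacna1d, which opens at more negative potentials, read -2.30 in transgenic and -2.70 in wild-type spinal cord, and -1.84 in transgenic and -2.07 in wild-type brainstem/cerebellum. The sign thus differed within the family: Cacna1d was higher on the transgenic arrays by 0.41 and 0.23, and a dimmer probe gave 1.02 in spinal cord. Cacna1f, the retinal channel, was above background in wild-type spinal cord only. Cacna1s, the muscle channel that the rule leaves out, differed by 0.51 in spinal cord.

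The auxiliary calcium channel subunits were mixed. Among α2δ subunits, which bring the channel to the membrane, Cacna2d2 read 2.58 in transgenic and 2.86 in wild-type spinal cord, and 3.69 in transgenic and 3.65 in wild-type brainstem/cerebellum. Cacna2d3 read 1.50 in transgenic and 2.24 in wild-type spinal cord, and 1.89 in transgenic and 2.13 in wild-type brainstem/cerebellum, the lowest spinal cord difference of the family at -0.75. Cacna2d1, the target of gabapentin, read 1.19 in transgenic and 1.59 in wild-type spinal cord, and 1.57 in transgenic and 1.71 in wild-type brainstem/cerebellum. Its spinal cord difference was -0.40 at that probe and ran from -1.83 to 0.08 over 6 probes. None of the 4 reached 2-fold at the probe that stood for it.

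Among β subunits, which sit on the cytoplasmic side of the pore, Cacnb2 read -2.25 in transgenic and -0.93 in wild-type spinal cord, and -1.41 in transgenic and -1.43 in wild-type brainstem/cerebellum. Its difference of -1.32 was not shared by another probe, which lies upstream and gave 0.39. Averaged over its probes above background on at least 1 array, the spinal cord difference was -0.01. That average takes in dim probes not above background on both spinal cord arrays. One read -4.37 in transgenic and -5.96, not above background, in wild-type spinal cord. Another read -5.36, not above background, in transgenic and -4.64 in wild-type spinal cord. Cacnb4, a partner of Cacna1a in cerebellum, read 0.06 in transgenic and 0.81 in wild-type spinal cord, and 1.45 in transgenic and 1.23 in wild-type brainstem/cerebellum, and both its probes gave -0.75 to -0.74 in spinal cord. Cacnb3 read -0.57 in transgenic and -0.76 in wild-type spinal cord, and -0.21 in transgenic and -0.09 in wild-type brainstem/cerebellum. Cacnb1 read -2.91 in transgenic and -2.82 in wild-type spinal cord, and -3.10 in transgenic and -3.35 in wild-type brainstem/cerebellum. The genotypes lay close together in both tissues for these genes, and Cacnb1 differed by 0.25 in brainstem/cerebellum.

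Several probes per gene gave a check within the arrays. In spinal cord, 29 genes had several probes above background on both arrays. Of these, 18 had all probes below 0 and 3 all above, and in 8 the probes spread by more than 1 on the log2 scale. In brainstem/cerebellum 27 genes had several such probes, the median spread was 0.28 and none spread by more than 1. Those with a wide spread in spinal cord included Cacna2d1, Cacnb2, Kcnd1, Kcnh6, Scn1a and Scn8a. Scn8a ran from -1.59 to -0.21, all lower on the transgenic array, whereas Scn1a ran from -0.91 to 0.27 and Kcnh6, a dim gene, from 0.13 to 1.59. Position along the transcript was examined after the values were seen: over 13 pairs of probes of a member at least 500 bases apart on 1 transcript, the spinal cord difference at the downstream probe minus that at the upstream one had a median of -0.12, and over 3479 such pairs of all genes also of -0.12. The GC content of probes had a correlation of -0.07 with the spinal cord difference over 102 member probes and of 0.02 over 32160 probes, given as descriptions.

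The probes of Scn8a and Cacnb2 are shown as a gene whose probes vary in size but not in direction and a gene whose call rests on 1 probe. Each line holds the first 30 of 60 bases, 5′ to 3′, with mm9 coordinates on the plus strand. The Scn8a probes lie at chr15:100871650-100871709, chr15:100875702-100875761 and chr15:100766904-100766963, with spinal cord differences of -1.17, -1.59 and -0.21. The Cacnb2 probes lie at chr2:14908952-14909011 and chr2:14884906-14884965, with -1.32 and 0.39.
Scn8a probe at transcript base 6620: taatcgtctgtttctttaacataacagcat
Scn8a probe at transcript base 10672: gcaggtgtgcacatgtatgtgtgtgtgtgt
Scn8a probe at transcript base 301: acagcaagcccaagccaaacagtgacctgg
Cacnb2 probe at transcript base 3363: ggaatggacaatctttgggtgtcagagtat
Cacnb2 probe at transcript base 3068: ggagtccctcttgttaagcttgttttgaaa
A further Scn8a probe, at transcript base 96, gave -0.77. Both downstream probes, at bases 6620 and 10672, were lower than both upstream ones, at bases 96 and 301. Between the upstream probes the order was the reverse. The Cacnb2 probes are assigned to different transcripts.

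**Figure D3:**
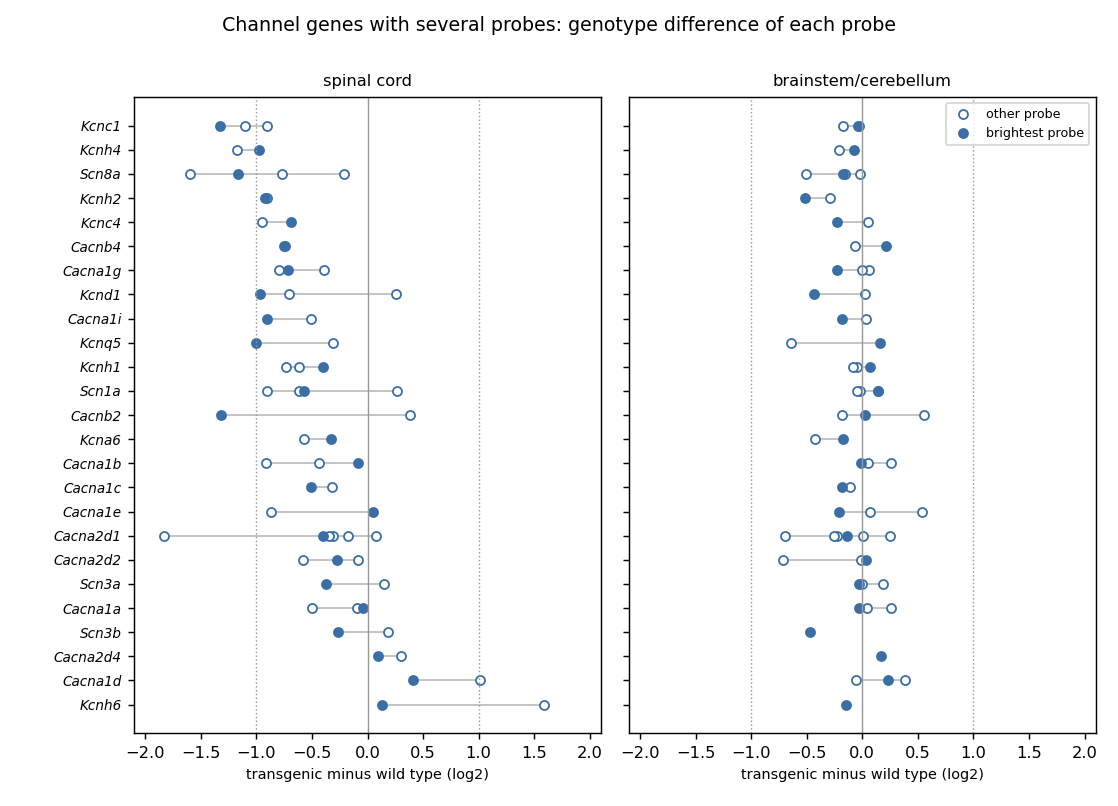
Transgenic minus wild-type log2 difference of every probe above background on both arrays, for 25 of the channel genes with several such probes in spinal cord (rows), in spinal cord (left panel) and brainstem/cerebellum (right panel). Filled points are the brightest probe of a gene, open points its other probes, and dotted lines mark 2-fold. In spinal cord 15 of these 25 genes have all points left of 0, and Cacna2d1 and Cacnb2 show wide spreads.

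Tissue set the levels of several channels more than genotype did. In transgenic mice, spinal cord minus brainstem/cerebellum had a median of -0.39 over 57 channel genes, against -0.02 over all genes, and 42 lay below 0 (all genes 51.2%). There, 15 genes were at least 2-fold lower in spinal cord (all genes 6.17%) and 1 at least 2-fold higher (all genes 10.1%). In wild-type mice the median was -0.01 over 62 genes, against -0.03 over all genes, with 32 below 0 (all genes 52.3%), 8 at least 2-fold lower (all genes 4.3%) and 3 at least 2-fold higher (all genes 6.54%). The transgenic arrays shared a slide, whereas the wild-type arrays lay on different ones, so in wild-type mice tissue and slide cannot be told apart. Over the 57 genes on all 4 arrays the tissue differences of both genotypes, which share no array, correlated with a Pearson r of 0.70 and a Spearman rho of 0.69, as descriptions. Of the 15 and 6 genes lower in spinal cord in transgenic and wild-type mice within these 57, 5 were in both lists. That is 33.3% of the transgenic list and 83.3% of the wild-type list. The same overlap was not computed over all genes, so these shares have no baseline here.

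The shared 5 were Kcnd2, Kcnd3, Cacna1g, Cacna1a and Scn2b. The tissue difference of Kcnd2 was -2.37 in transgenic and -1.61 in wild-type mice, and that of Cacna1g -2.17 in transgenic and -1.69 in wild-type mice. For Kcnd3 it was -1.47 in transgenic and -1.33 in wild-type mice, for Cacna1a -1.34 in transgenic and -1.32 in wild-type mice, and for Scn2b -2.05 in transgenic and -1.18 in wild-type mice. These are channels with known high expression in cerebellar granule or Purkinje cells, and the markers of those cells were lower in spinal cord as well: Purkinje markers had a median tissue difference of -3.66 in transgenic and -3.20 in wild-type mice, with all 7 at least 2-fold lower in both genotypes. The part of cell makeup in the channel values was not tested. Scn11a was at least 7.52-fold lower in spinal cord in transgenic mice and differed by -2.37 in wild-type mice.

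Higher in spinal cord was Kcna5, by 1.18 in transgenic and 1.53 in wild-type mice. The tissue differences of Kcng2 and Kcns3 were -1.37 and 0.64 in transgenic mice and 1.46 and 1.23 in wild-type mice. Kcnh8 and Kcns1 followed, Kcnh8 with -2.52 in transgenic and -2.40 in wild-type spinal cord against -3.24 in transgenic and -3.39 in wild-type brainstem/cerebellum. Kcns1 read -0.19 in transgenic and -0.29 in wild-type spinal cord, against -1.04 in transgenic and -1.24 in wild-type brainstem/cerebellum. The order of tissues was the same in both genotypes for Kcna5, Kcns3, Kcnh8 and Kcns1 and not for Kcng2. Kcnc1 depended on the probe, since its brightest one gave equal levels in both wild-type tissues and the others gave differences down to -0.95.

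**Figure D4:**
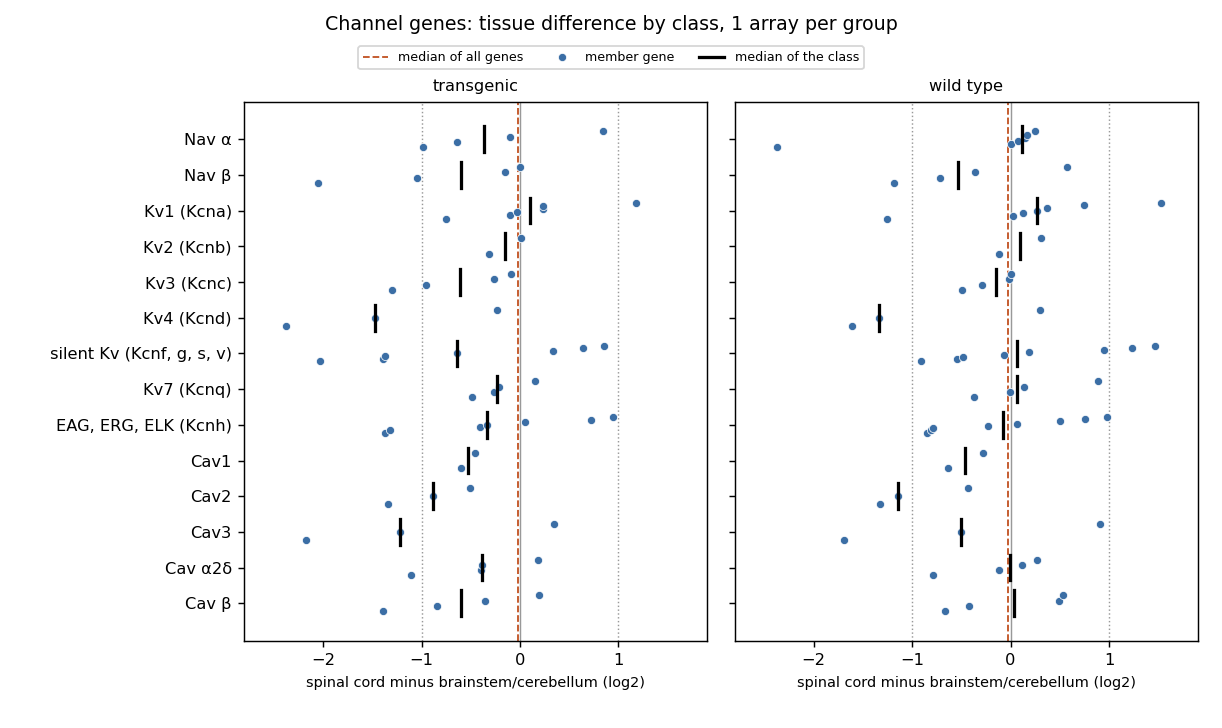
Spinal cord minus brainstem/cerebellum log2 difference of each channel gene above background on both arrays, by class (rows), in transgenic (left panel) and wild-type mice (right panel), 1 array per group. Points are genes, black bars class medians, the dashed line is the median of all genes and dotted lines mark 2-fold. Kv4 and Cav2 medians lie left of 0 in both panels, at -1.47 and -0.89 in transgenic and -1.33 and -1.14 in wild-type mice, and the silent Kv subunits span both sides.

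Partners of the channels also lay mostly lower in transgenic spinal cord. Of 34 auxiliary and anchoring genes with a probe (cytoplasmic Kv β subunits, KChIP and DPP partners of Kv4, ankyrins, FGF homologous factors and stargazin-like γ subunits), 31 were measured on both spinal cord arrays. Of these, 25 lay below 0, 4 were at least 2-fold lower and 0 higher in transgenic tissue, with a median of -0.49. Over all genes 53.6% lay below 0, 6.38% were at least 2-fold lower and 8.51% at least 2-fold higher there. In brainstem/cerebellum the median of the partners was -0.16 over 30, with 0 past 2-fold either way. Kcnab1, a Kv1 β subunit, read 2.17 in transgenic and 3.32 in wild-type spinal cord, and 3.22 in transgenic and 3.30 in wild-type brainstem/cerebellum, so that the transgenic spinal cord array was the low one, as for Kcna2. Stac2, Fgf11 and Kcnab3 were the others, at -1.35, -1.12 and -1.04 in spinal cord. Ank3, the ankyrin that anchors sodium channels at initial segments and nodes, differed by -0.38 and Cntn2, a contactin of juxtaparanodes, by 0.08 in spinal cord. Kcne5 had no probe under that symbol.

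In spinal cord 29 other cation channel genes were measured in both genotypes, with a median of -0.51, and past 2-fold were 3 higher and 3 lower, where 8.51% of all genes were higher and 6.38% lower. Kcnn4, a calcium-activated potassium channel of immune cells, read -0.02 in transgenic and -2.96 in wild-type spinal cord, and -2.81 in transgenic and -3.90 in wild-type brainstem/cerebellum. Hvcn1, the proton channel of phagocytes, read 1.35 in transgenic and -1.24 in wild-type spinal cord, and -0.76 in transgenic and -2.68 in wild-type brainstem/cerebellum. Kcnk6 was higher by 2.15 in spinal cord and 1.40 in brainstem/cerebellum. The same 3 genes were the ones past 2-fold higher in brainstem/cerebellum, while no voltage-gated channel gene of the set was at least 2-fold higher in either tissue on this scale. Lower in transgenic spinal cord were Kcnj13, Kcnj16 and the SK channel gene Kcnn2, at -1.39, -1.20 and -1.03.

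Markers of cell types moved beside the channels. Over all genes, 53.6% lay below 0 in spinal cord, 6.38% were at least 2-fold lower and 8.51% at least 2-fold higher. In brainstem/cerebellum 2.67% of all genes were at least 2-fold higher. Of 15 pan-neuronal genes, 14 lay below 0 in spinal cord with a median of -0.61, and 3, the neurofilament genes Nefh, Nefm and Nefl, were at least 2-fold lower, at -1.41, -1.35 and -1.15. Their median in brainstem/cerebellum was -0.22, and their summed linear level was 492 times the 75th percentile in transgenic and 869 in wild-type spinal cord, and 550.0 in transgenic and 639.9 in wild-type brainstem/cerebellum. Motor neuron markers had medians of -0.97 in spinal cord and -0.65 in brainstem/cerebellum, with 2 of 7 at least 2-fold lower in spinal cord, while Chat, the enzyme of acetylcholine synthesis, differed by -0.12 there. Microglia and macrophage markers were the opposite: 8 of 10 were at least 2-fold higher in transgenic spinal cord and 6 of 10 in transgenic brainstem/cerebellum, with medians of 2.55 in spinal cord and 1.18 in brainstem/cerebellum and a summed level of 310.4 in transgenic against 89.0 in wild-type spinal cord. Of these microglia and macrophage markers, Itgam and Ptprc lay below 0 in spinal cord, at -0.28 and -0.85, and Ptprc also in brainstem/cerebellum, at -0.51. Astrocyte markers had a spinal cord median of 0.34 over 6 genes that went both ways, with Gfap at 1.08 and Gja1 at -1.81. Oligodendrocyte and precursor markers had a median of 0.24, and 3 of 8, the precursor genes Cspg4, Gpr17 and Pdgfra, were at least 2-fold higher, at 2.36, 1.45 and 1.08. The part of cell makeup in the channel differences was not tested.

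The scale of the arrays also moved with the spinal cord result. The 7 spike-in control probes, RNA added in fixed amounts, read higher on the transgenic than on the wild-type spinal cord array after scaling, by a median of 0.42 with a range of -0.19 to 0.66, and by -0.07 in brainstem/cerebellum. Scaled on the spike-ins, 23 of 58 channel genes were at least 2-fold lower in spinal cord, beside 16.6% of all genes, and the member median was -0.84, beside -0.44 over all genes. With another background correction (normexp) 5 were, beside 3.10% of all genes. Member median minus median of all genes ran from -0.60 to -0.36 in spinal cord over the 8 alternatives tried.

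**Figure D5:**
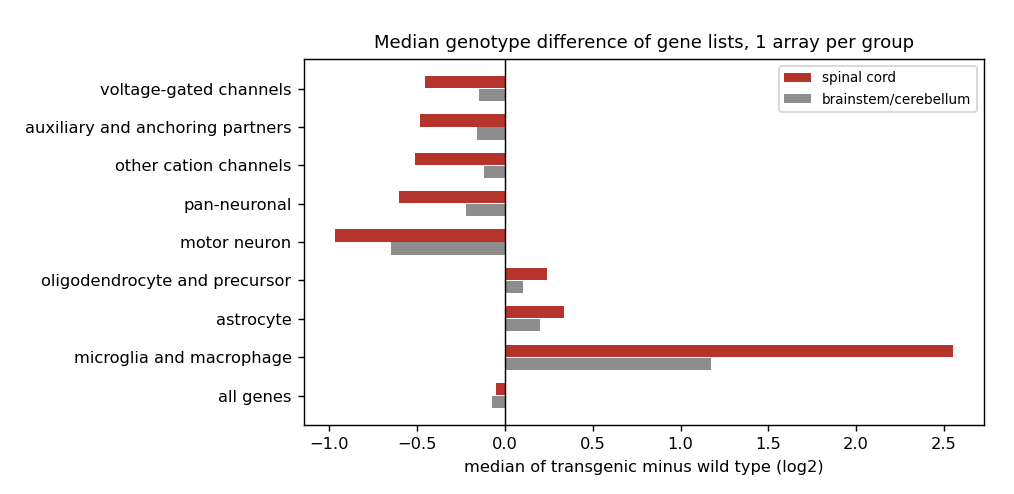
Median transgenic minus wild-type log2 difference (bars from 0) of the channel genes, of lists of partner genes and cell type markers, and of all genes, in spinal cord (red) and brainstem/cerebellum (grey), 1 array per group. Voltage-gated channels stand at -0.45 in spinal cord, near auxiliary partners at -0.49, other cation channels at -0.51 and pan-neuronal genes at -0.61, and microglia and macrophage genes at 2.55.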

How the data were processed

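Per the labels' protocols, TRIzol-extracted total RNA was column-purified and its amplified cRNA carried Cy3, for Agilent 1-colour arrays. The deposited scanner files hold spot intensity values on a linear scale from Agilent Feature Extraction, version 10.7.1.1 per the file headers and 9.5.1.1 per the submitters' processing notes. Per the file headers, the processed intensity is background-subtracted and detrended within the array, and probe coordinates refer to build mm9. The series table deposited by the authors holds linear intensities, and how they were normalized is not given here. Its columns share a median of 30.4 and follow a quantile normalization computed here with a Pearson r of 0.99999, and it served as an alternative.

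From the processed intensities, log2 values minus the 75th percentile of each array were computed, without control and outlier-flagged spots. The array annotation's own symbols chose the 70 genes, and other probes were named by accession or symbol through a RefSeq table of GRCm38.p6 (45334 of 56605 probes named). A gene is represented by its brightest probe, by mean level. Counts use genes well above background on both arrays and a threshold of 2-fold. A gene above background on 1 array gives a bound, taken against the lowest signal well above background on the array where it is dim, or against its own signal there if that is higher. The technical SD came from probes spotted repeatedly on an array, in bins of level. With 1 array per group no test was run, and the number of arrays limits the precision. Named genes are 2 per class with the highest mean level, the 6 largest genotype differences each way per tissue, all past 2-fold, the 5 largest tissue differences each way and genes whose probes disagree by more than 1. Promoter motifs, probe GC content and probe position were added after seeing the values. Members, classes and gene lists were chosen with earlier results of these data known. Alternatives were scaling on the median or on spike-ins, quantile normalization, normexp with an offset of 50 plus quantile normalization, the authors' table, 2 other background filters and the mean of a gene's probes. That mean took every probe above background on at least 1 array. Only the count of 2-fold differences was tried on simulated data, with planted changes well past 2-fold and noise at the technical SD. Normalization, choice of probe and variation between arrays or slides were not simulated. Python 3.11.15, R 4.3.3 and limma 3.58.1 were used. Some members are not reported here by name and are left out of the plot by probe. No sample column was left unused (0).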

Additional observations from a re-analysis of the deposited data

Results flagged for a closer look

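Some channel genes lay on opposite sides of 0 in the 2 tissues, lower on the transgenic spinal cord array and higher on the transgenic brainstem/cerebellum array, by more than the technical SD of their level in each. With 1 array per group, each of these differences between tissues was not tested. Kcng2 had -2.71 in spinal cord and 0.13 in brainstem/cerebellum. Kcng1 had -1.24 in spinal cord and 0.34 in brainstem/cerebellum, with a technical SD of 0.63 and 0.24 at these levels. Kcnq5, an M-current channel, had -1.0 in spinal cord and 0.16 in brainstem/cerebellum. Cacnb4 had -0.75 in spinal cord and 0.22 in brainstem/cerebellum, Scn1a -0.57 in spinal cord and 0.14 in brainstem/cerebellum, and Kcnh3, an ELK channel of forebrain neurons, -0.42 in spinal cord and 0.17 in brainstem/cerebellum. At other probes the sign in brainstem/cerebellum was reversed for Kcng2, Kcnq5, Cacnb4 and Scn1a, at -0.50, -0.64, -0.06 and down to -0.05. The signs also depend on the scaling. Median scaling lowers every brainstem/cerebellum difference alike, and the median of the channel genes went from -0.15 to -0.32. With it Kcng2, Scn1a and Kcnq5 lie below 0 there and Kcnh3 lies near 0, while Kcng1 and Cacnb4 stay above 0.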

How the results depend on the processing

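With 1 array per group, precision is limited by the number of arrays, and signals near background bound the dim genes. No paired analysis was possible because each group has 1 array and the labels give no replicate numbers. A slide block was not run, since it could not be fitted. Over the counts and medians of the channel genes, 61 values under the alternatives stayed near the main ones and 19 moved, and the cause was not tested. Spike-in scaling gave 1 gene at least 2-fold higher and 0 lower in brainstem/cerebellum, 23 lower with a median of -0.84 in spinal cord (all genes 2799 lower and 867 higher, against 1076 and 1434), 0 higher by tissue in transgenic mice and 7 higher by tissue in wild-type mice. Normexp with quantile normalization gave 0 lower in brainstem/cerebellum, 5 lower in spinal cord (all genes 523 lower and 918 higher), 0 higher by tissue in transgenic and 5 lower by tissue in wild-type mice. Without a background filter, which adds dim probes, 1 was higher and 3 lower in brainstem/cerebellum, 1 higher in spinal cord, 4 higher by tissue in transgenic and 5 higher by tissue in wild-type mice. Requiring background on all 4 arrays drops Kcna3 and left 0 lower in brainstem/cerebellum. Median scaling put the brainstem/cerebellum median at -0.32 and that of all genes at -0.24, and the gap of -0.077 between them was that of the main scaling. The mean of probes gave 2 higher by tissue in transgenic and 5 in wild-type mice, and reversed Cacna1e by tissue in wild-type mice, at 0.30 against -1.14. Of 39 named differences past 2-fold, normexp left 25 past it, the mean of probes 31 and the values of the authors' table left 38. The share of all genes past 2-fold also depended on the setting: in brainstem/cerebellum 0.0905% to 2.59% were lower and 1.1% to 5.67% higher, in spinal cord 3.10% to 16.6% lower and 5.14% to 9.64% higher. Over all alternatives Kcng2 ran from -3.09 to -1.76, Kcnc1 from -1.72 to -1.11 and Kcna2 from -1.46 to -1.03 in spinal cord, while Cacnb2 ran from -1.70 to -0.01 and Kcng1 from -1.63 to -0.45.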
